A study of Mus musculus with 20 samples.

Results

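The genes described here are 10 regulators of mitochondrial biogenesis: the coactivator genes Ppargc1a and Ppargc1b, the nuclear receptor genes Esrra, Esrrg, Ppara and Ppard, the nuclear respiratory factor gene Nrf1, and the mitochondrial DNA maintenance and transcription genes Tfam, Tfb2m and Polg. They were chosen by name, with no measured value in the rule, as the rows whose Ensembl identifier carried these symbols in the GRCm38 annotation, and all 10 were found among the 47069 rows of the heart table and the 53801 rows of the skeletal muscle table. The names themselves were picked with earlier results of these data known. RNA was measured in 20 libraries, 5 each of WT heart, Taz-KD heart, WT muscle and Taz-KD muscle, the muscle being taken at the femur. WT animals were C57BL/6N mice, and Taz-KD animals carried the transgene ROSA26H1/tetO-shRNA:TAZ, a doxycycline-inducible short hairpin RNA against the tafazzin gene placed at a locus that is active throughout the body. Both genotypes received chow with doxycycline at 625 mg/kg until they were examined at 20 weeks of age, so the drug itself was shared by all 4 groups. Hearts and muscles carried different animal numbers, and no animal number occurred in more than 1 group.

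Tafazzin remodels cardiolipin, the phospholipid of the inner mitochondrial membrane, and its loss causes Barth syndrome, with cardiomyopathy and skeletal myopathy. Mitochondrial biogenesis is controlled in these tissues by PGC-1 coactivators, which do not bind DNA themselves but are recruited by the estrogen-related receptors (ERR), the PPAR receptors and NRF-1. These factors switch on nuclear genes for respiration and fatty acid oxidation, and NRF-1 and GABP also act on nuclear genes such as Tfam, whose products then enter the organelle and copy and transcribe mitochondrial DNA.

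Short stretches of the promoters are shown because NRF-1, GABP and the cAMP response pathway are known regulators of genes of this kind. RefSeq promoters (GRCm38.p6), taken as the 250 bases before each annotated start, were given for 9 of the 10 genes, 13 promoters in all, since Esrrg had 4 and Nrf1 had 2. They were searched on both strands for the NRF-1 palindrome (the letters in capitals under Ppara, with any base allowed after the first A), the GABP element (CCGGAAG), the ERR core (AAGGTCA) and its extended form (TCAAGGTCA, which contains the core), a PPAR element (a direct repeat of AGGTCA with 1 base between the copies), the cAMP response element (TGACGTCA) and its core (TGACG, contained in the former). Capitals mark the match in each 30-base stretch, printed 5′ to 3′ on the strand of the gene, and a match to the other strand appears as its reverse complement.
Ppara, NRF-1 element at chr15:85735735-85735764 (plus strand): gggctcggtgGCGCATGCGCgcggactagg
Tfam, GABP element at chr10:71238073-71238102 (minus strand): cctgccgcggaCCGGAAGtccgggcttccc
Polg, GABP element at chr7:79466293-79466322 (minus strand): gaggacctcacCCGGAAGtccctctgcacc
Ppargc1a, cAMP response core at chr5:51567757-51567786 (minus strand): ggtgccctcccaCGTCActgagctccagtg

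The NRF-1 element lay 31 bases before the RefSeq start of Ppara and was present in 1 of the 13 promoters, against 3.74% of all 32851 promoters. The GABP element lay 47 bases before the start of Tfam and 38 bases before that of Polg, 2 of 13 promoters against 6.91% of all. The cAMP response core occurred in 3 of 13, namely Ppargc1a, Polg and Ppara, against 17.8% of all. Neither the ERR core, its extended form, the PPAR element nor the full cAMP response element was found in these 13 windows, against 4.08%, 0.387%, 0.0335% and 1.55% of all promoters. For Ppara, Tfam and Polg the GENCODE gene model begins 793, 236 and 89 bases upstream of the RefSeq start, so these matches lie downstream of the earliest annotated start, and a match here is a description of letters only.

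The library totals were 26963288 to 30090918 counts in WT hearts, 30248445 to 35301909 in Taz-KD hearts, 36429399 to 61100247 in WT muscle and 46985694 to 74361382 in Taz-KD muscle, so every Taz-KD heart was sequenced more deeply than every WT heart. Behind the values of the 10 genes lay 526 to 6915 raw counts per heart library and 78 to 8624 per muscle library. Levels are given as CPM, the count of a gene relative to all counts of its library, scaled between libraries with TMM factors. Taz fell in both tissues, from 37.8 ± 1.40 to 11.7 ± 0.731 CPM in heart (SD, n = 5; log2 fold change -1.70, SE 0.06, edgeR adjusted p = 4.1e-09) and from 51.7 ± 3.42 to 13.4 ± 1.05 CPM in muscle (SD, n = 5; log2 fold change -1.94, SE 0.08, edgeR adjusted p = 1.9e-06), with no overlap between genotypes and an exact two-sided permutation p of 0.00794 in each, the smallest that 5 against 5 allows. The muscle libraries were uneven. Summed markers of slow fibres ran from 118 CPM in Taz-KD A39 to 21505 CPM in WT A55, and summed markers of white adipocytes reached 4489 CPM in WT A33 against 177 to 1812 CPM elsewhere. The group medians, WT against Taz-KD, were 2578 and 1055 CPM for slow fibres and 962 and 342 CPM for white adipocytes, with overlapping libraries. All 8 white adipocyte markers had an unadjusted edgeR p under 0.05 in muscle (median log2 fold change -3.05), though 0 were called. A33 and A55 also stood apart on the first principal component, which carried 47.3% of the variance in muscle, so the muscle effects are also given without them.

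In heart, 1 of the 10 regulators changed. Ppara, which encodes the fatty acid-sensing receptor PPARα that drives fatty acid oxidation genes, was lower in Taz-KD. The other 9 did not pass the test, among them the coactivator genes Ppargc1a and Ppargc1b, which had fitted Taz-KD to WT ratios of 0.897 and 0.873. Of all 19486 genes tested in heart 24.6% passed (edgeR quasi-likelihood test, Benjamini-Hochberg adjusted p under 0.05), 14.4% higher and 10.3% lower, so 1 lower gene of 10 was close to the share among all genes. The median log2 fold change over the 10 was -0.08, against -0.02 over all genes tested, and the median absolute change was 0.16 against 0.21. At an unadjusted p under 0.05 the count was 4 of 10 (Ppara, Esrra, Esrrg and Tfam), against 36.5% of all genes. The genotypes did not separate fully for any of the 10, whereas 18.3% of all genes had non-overlapping groups.

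**Figure D1:**
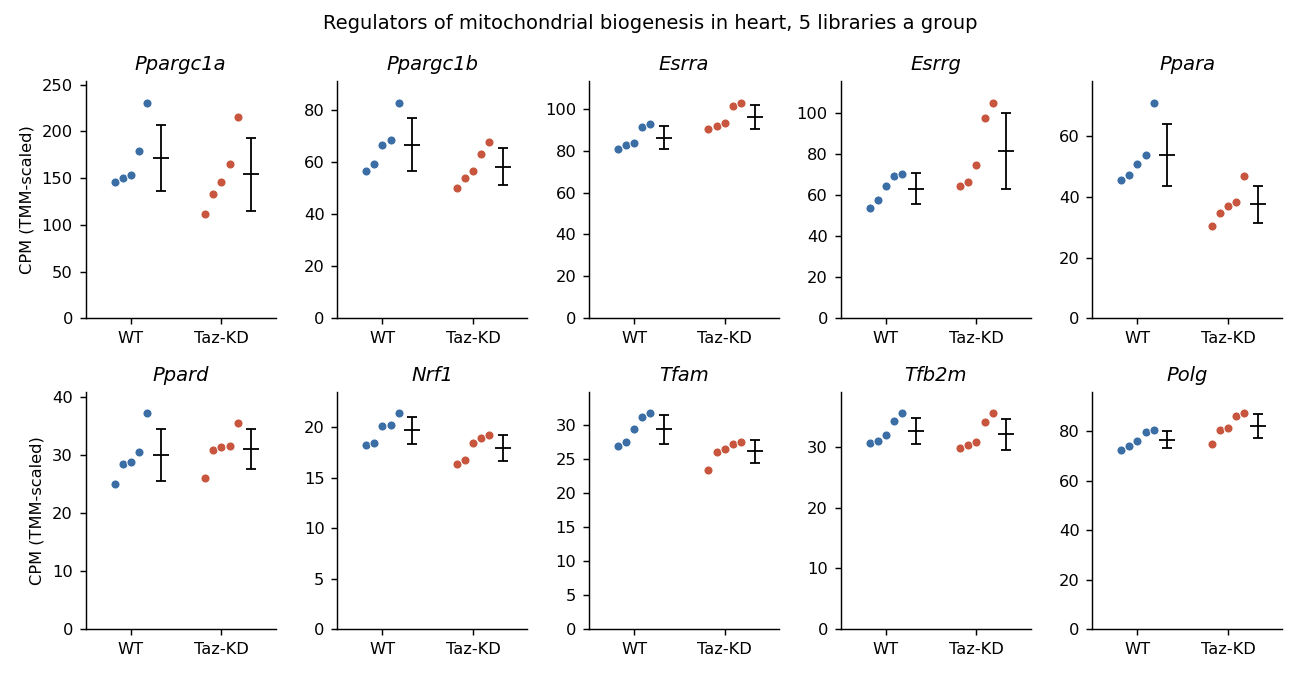
Levels of the 10 regulators in heart, in TMM-scaled CPM on linear axes from 0, with 1 point per library (sorted within its genotype, WT blue, Taz-KD red) and the mean ± SD of 5 libraries beside them. The Ppara panel shows 4 of 5 Taz-KD hearts below every WT heart, while the groups overlap in all 10 panels.

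Ppargc1a encodes PGC-1α, the inducible coactivator that responds to energy demand. It stood at 153.6, 179, 146, 150 and 231 CPM in the WT hearts R3, R1791, R1792, R1795 and R1800, and at 215, 112, 146, 133 and 165 CPM in the Taz-KD hearts R2, R1793, R1796, R1797 and R1798. The single highest value of each genotype lay far above its other libraries, and the groups overlapped over most of their range. The log2 fold change was -0.16 (SE 0.18, 95% confidence interval -0.55 to 0.24, edgeR adjusted p = 0.58), and the interval therefore still held a fall to 0.681 of WT. Hearts R2 and R3 belong to another run of animal numbers than the other 8, and without them the fold change was -0.34 and still not called. It was -0.03 without WT heart R1800 and -0.06 without Taz-KD heart R1793.

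Ppargc1b encodes PGC-1β, a related coactivator linked to basal mitochondrial content. It ranged from 56.6 to 82.9 CPM in WT against from 49.9 to 67.9 CPM in Taz-KD hearts, and the fitted ratio of 0.873 had a 95% confidence interval of 0.740 to 1.03 (edgeR adjusted p = 0.22). Without WT heart R1800 its log2 fold change of -0.20 became -0.11. Its exons and those of Ppargc1a overlapped no other annotated exon.

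Neither ERR gene passed the test in heart. Esrra encodes ERRα, the main DNA-binding partner of PGC-1α at oxidative phosphorylation genes, and it measured 80.7 to 92.6 CPM in WT against 90.3 to 102.9 CPM in Taz-KD hearts, with 3 of 5 Taz-KD hearts above every WT heart (log2 fold change 0.15, SE 0.06, 95% confidence interval 0.02 to 0.29, edgeR adjusted p = 0.087). Of its exon bases 1.66% overlap the opposite-strand gene Trmt112 and 2.07% the microRNA gene Mir6990. Esrrg, whose product ERRγ is abundant in oxidative muscle, measured 57.5, 64.5, 53.6, 69.5 and 70.5 CPM in the WT hearts, in the order given for Ppargc1a, and 105, 66.6, 97.6, 64.6 and 74.5 CPM in the Taz-KD hearts. Hearts R2 and R1796 were clearly high and the other 3 Taz-KD hearts lay at or near the WT range. The log2 fold change of 0.37 (SE 0.14, 95% confidence interval 0.06 to 0.69) had an edgeR adjusted p of 0.082. Leaving out Taz-KD heart R1797 raised it to 0.45 with an adjusted p of 0.039, so that 2 of the 10 genes were then called, and scaling by library totals also placed it past the threshold (adjusted p = 0.044). Without R2, the highest library, it was 0.26 (adjusted p = 0.17), and without R2 and R3 0.23 (adjusted p = 0.27).

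Ppara stood at 45.6, 53.8, 50.9, 47.3 and 71.1 CPM in the WT hearts and at 46.9, 38.4, 34.7, 30.5 and 37.0 CPM in the Taz-KD hearts. Of the Taz-KD hearts 4 lay below the whole WT range, and R2 lay within it. The mean fell from 53.8 ± 10.2 to 37.5 ± 6.07 CPM (SD, n = 5), a log2 fold change of -0.52 (SE 0.14, 95% confidence interval -0.81 to -0.22, edgeR adjusted p = 0.016). The fall was -0.67 without R2 and R3, -0.40 without the highest WT heart R1800, and -0.53 with the run of animal numbers as a term (adjusted p = 0.022). It was -0.55 with an adjusted p of 0.43 in a fit of all 20 libraries, where the wider spread in muscle enters the estimate, and in that fit 0 of the 10 genes were called in heart. Of cell type markers, shares stand against 14.4% called higher and 10.3% called lower among all heart genes. Endothelial markers summed to 937 to 1109 CPM in WT against 778 to 864 CPM in Taz-KD hearts, with 4 of 8 called lower (50%). The red blood cell list had 3 of 5 called lower (60%), and its sums overlapped, at 421 to 741 CPM in WT and 289 to 457 CPM in Taz-KD hearts. The fibroblast, macrophage, smooth muscle, white adipocyte and nerve lists had 0 called genes. The slow fibre list, whose members except Tnni1 are also expressed in heart, summed to 18827 to 23626 CPM in WT against 14795 to 18597 CPM in Taz-KD hearts. The skeletal fibre list summed to 1021 to 1448 CPM in WT and 1573 to 2422 CPM in Taz-KD hearts, with no overlap of libraries. Of its 12 genes 8 were under 1 CPM in every WT heart. Of the 7 tested 1 was called higher and 0 lower, with a median log2 fold change of -0.02. The brown adipocyte list summed to 167.2 to 195 CPM in WT and 104 to 166.5 CPM in Taz-KD hearts, so the groups nearly touched. Of its 4 tested genes 1 was called higher and 1 lower. Cardiomyocyte markers overlapped between genotypes at 41084 to 55452 and 40164 to 54259 CPM. The part of these shifts in the Ppara result was not tested, and in whole tissue fewer cells of a type and less RNA per cell cannot be told apart. Ppard, the gene of the related receptor PPARδ, had a log2 fold change of 0.05 (SE 0.11, 95% confidence interval -0.18 to 0.28, edgeR adjusted p = 0.77), and turned to -0.01 without WT heart R1791.

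Nrf1 encodes NRF-1, which binds the palindromic element shown above. It ranged from 18.2 to 21.4 CPM in WT against 16.4 to 19.3 CPM in Taz-KD hearts (fitted ratio 0.911, 95% confidence interval 0.818 to 1.02, edgeR adjusted p = 0.20). Tfam, the gene of the packaging and transcription factor of mitochondrial DNA, stood at 26.9, 31.7, 27.5, 29.5 and 31.2 CPM in WT against 27.5, 26.5, 26.1, 23.3 and 27.2 CPM in Taz-KD hearts. Of the Taz-KD hearts 3 lay below the WT range and the other 2 at its lower end. The log2 fold change was -0.17 (SE 0.07, 95% confidence interval -0.32 to -0.02) with an edgeR adjusted p of 0.098, and it passed the threshold with upper-quartile factors (adjusted p = 0.047) and with library totals (adjusted p = 0.048). Tfb2m, which encodes the second factor needed to start mitochondrial transcription, had a ratio of 0.983 (95% confidence interval 0.885 to 1.09). Polg, the gene of the catalytic subunit of the mitochondrial DNA polymerase, had a ratio of 1.07 (0.982 to 1.17), with 8.57% of its exon bases shared with the opposite-strand gene Fanci. Among these 4 genes the intervals left room for changes of at most about 20% in either direction.

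**Figure D2:**
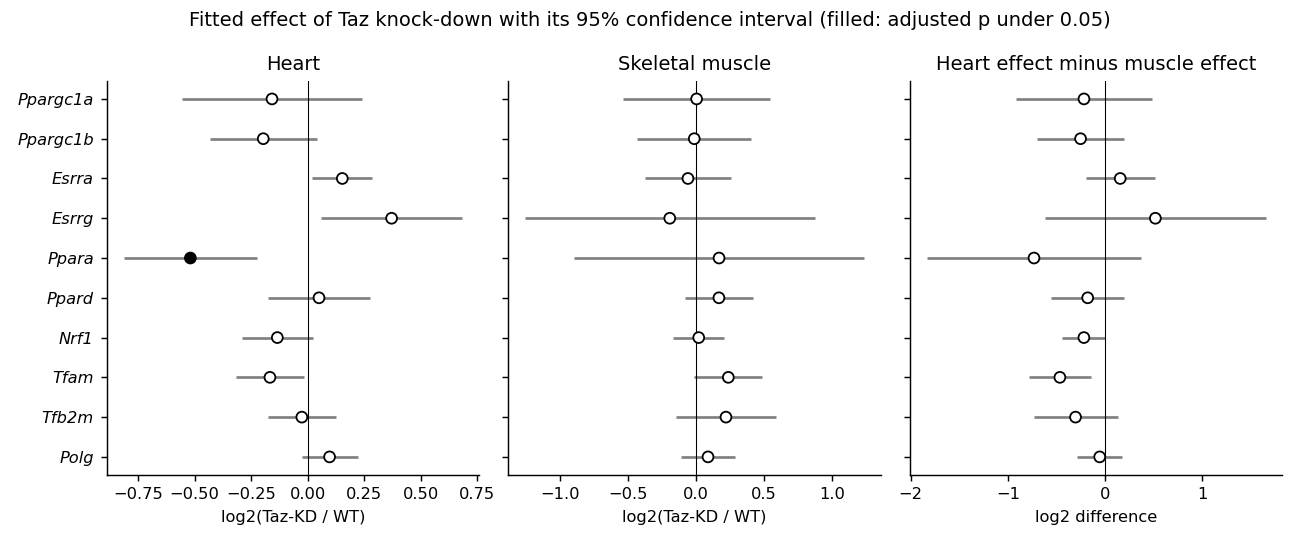
Fitted log2 effect of Taz knock-down on each regulator (point) with its 95% confidence interval (line) in heart, in skeletal muscle, and as the heart effect minus the muscle effect, each panel on its own axis. Filled points have an adjusted p under 0.05, which holds for Ppara in heart alone, and the Esrrg and Ppara intervals are the widest in muscle.

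The genes around these regulators were grouped by role in 12 lists, whose counts stand against 14.4% higher and 10.3% lower among all genes tested in heart. The lists were chosen with earlier results of these data known, so their shares are descriptions and not independent evidence. Some genes stand in more than 1 list. Genes that PGC-1 and ERR are known to activate were lower in Taz-KD heart in 9 of 22 tested, 40.9%, and higher in 0 (1 by DESeq2), against 10.3% lower and 14.4% higher among all genes, with a median log2 fold change of -0.18 against -0.02 over all genes. The muscle and heart oxygen store myoglobin (Mb) fell from 4755 ± 590 to 2562 ± 332 CPM (log2 fold change -0.89, SE 0.11, edgeR adjusted p = 1.0e-04). Etfdh, which passes electrons from fatty acid oxidation to ubiquinone, fell by 0.49 on the log2 scale, the complex I subunit gene Ndufs1 by 0.47, and Perm1 by 0.73. The lower count stayed between 7 and 10 with DESeq2 or with any 1 heart left out.

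PPAR targets were lower in 6 of 27 tested, 22.2% against 10.3% of all genes, and higher in 2, 7.41% against 14.4%, with a median of -0.14. This list shares a gene called lower with that of PGC-1 and ERR targets. The acyl-CoA handling genes Acaa2 and Cpt2, of mitochondrial fatty acid oxidation, fell by 0.58 and 0.41 on the log2 scale. Against this direction Acot2, a mitochondrial acyl-CoA thioesterase gene with close paralogs, rose from 84.5 ± 14.7 to 293 ± 41.1 CPM (SD, n = 5; log2 fold change 1.79, SE 0.13, edgeR adjusted p = 2.1e-06). Fgf21, the gene of a secreted metabolic hormone, was counted 0, 1, 0, 0 and 1 times in the WT hearts and 105, 62, 109, 30 and 50 times in the Taz-KD hearts (edgeR adjusted p = 8.7e-06).

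NRF-1 targets were called in both directions, 3 higher and 2 lower of 19, at 15.8% and 10.5% close to the shares among all genes, with a median of -0.03. This list holds Tfam and Tfb2m. Eif2s1, which encodes a subunit of translation initiation factor 2, rose by 0.46 on the log2 scale, and the import receptor genes Tomm20 and Tomm70a rose by 0.33 and 0.23. The cytochrome oxidase subunit gene Cox6c fell by 0.50, and the succinate dehydrogenase subunit gene Sdhd fell by 0.19. The lower count ranged from 1 to 4 when 1 heart was left out or DESeq2 was used.

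Cofactors of the coactivators were lower in 3 of 11, 27.3% against 10.3% of all genes, and higher in 1, 9.09% against 14.4%. The lower genes include Perm1, which is also counted among the PGC-1 and ERR targets. Lpin1, whose product is a phosphatidate phosphatase that also binds PGC-1α and PPARα, stood at 264, 229, 215, 280.2 and 285 CPM in the WT hearts and 152, 140.3, 131, 147 and 145 CPM in the Taz-KD hearts, with no overlap (log2 fold change -0.83, SE 0.08, edgeR adjusted p = 2.1e-05). Ncoa3, a steroid receptor coactivator gene, fell by 0.32, and the arginine methyltransferase gene Carm1 rose by 0.32. In muscle Lpin1 averaged 291 ± 99.4 CPM in WT against 354 ± 49.0 CPM in Taz-KD, and its effect differed between the tissues by -1.18 on the log2 scale (edgeR interaction, adjusted p = 0.014).

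Of the signals and modifiers acting on PGC-1α, 4 of 26 were lower and 3 higher, 15.4% and 11.5% against 10.3% and 14.4% of all genes. Hdac4, a class IIa histone deacetylase gene, fell from 109.8 ± 12.8 to 53.8 ± 10.9 CPM (SD, n = 5; log2 fold change -1.03, SE 0.13, edgeR adjusted p = 2.1e-04), and its effect differed from that in muscle by -1.09 (edgeR interaction, adjusted p = 0.0070). The p38 kinase genes Mapk14 and Mapk12 fell by 0.36 and 0.30. Creb1, whose product binds the cAMP response element, also passed as lower at -0.27. Gsk3b, a kinase gene, rose by 0.42, Prkaa2, the gene of an AMP-activated kinase catalytic subunit, by 0.33, and Mef2d by 0.24.

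Among corepressor genes 2 of 10 were higher and 1 lower, near the 14.4% and 10.3% of all genes. Tbl1x, a component of the NCoR and SMRT complexes, rose from 62.9 ± 4.11 to 130 ± 14.5 CPM (SD, n = 5; log2 fold change 1.05, SE 0.08, edgeR adjusted p = 2.0e-06), while its close relative Tbl1xr1 fell by 0.17. Mybbp1a, known as a repressor of PGC-1α, rose by 0.26. The Tbl1x effect differed between tissues by 1.31 on the log2 scale (edgeR interaction, adjusted p = 2.8e-05), since in muscle it averaged 23.6 ± 5.53 CPM in WT against 18.6 ± 1.497 CPM in Taz-KD.

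The list of nuclear receptor partners holds the retinoid X receptors and also other receptors, of the ERR, PPAR, thyroid hormone and further families. Of its 13 genes 3 were lower, 23.1% against 10.3% of all genes, and 1 higher, 7.69% against 14.4%. The retinoid X receptor genes Rxra and Rxrg, whose products pair with PPARs on DNA, fell by 0.36 and 0.38, and Esrrb fell by 0.54. Rxrb rose by 0.18 at an edgeR adjusted p of 0.048, close to the threshold, a call that DESeq2 did not make. The higher count of this list ranged from 0 to 1 when 1 heart was left out or DESeq2 was used. The list of 12 nuclear respiratory factors and partners also holds genes of other factors, and both called genes were of that kind. Nfe2l1, a stress response factor gene and not the NRF-1 gene Nrf1, rose by 0.47. Tfeb, the lysosomal biogenesis factor gene, fell by 0.22, so that 8.33% were called in each direction. The GABP subunit genes Gabpa, Gabpb1 and Gabpb2 were not called (edgeR adjusted p = 0.20, 0.089 and 0.098).

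**Figure D3:**
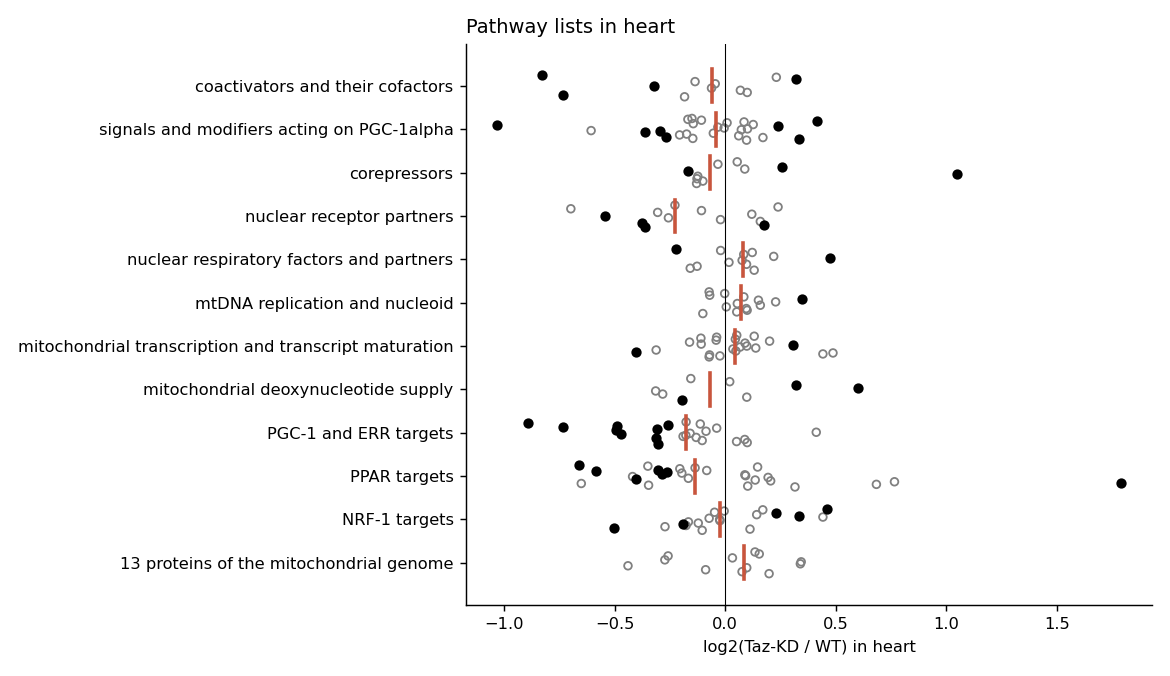
Log2 fold changes of the genes of 12 pathway lists in heart, Taz-KD over WT, with 1 point per gene, filled where the adjusted p was under 0.05, and a red bar at the median of each list. Fgf21 is not drawn, and the 9 called PGC-1 and ERR targets all lie left of 0.

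The genes that act inside the organelle were called in shares both below and above those of all heart genes, 14.4% higher and 10.3% lower. Of 14 genes of mitochondrial DNA replication and the nucleoid 1 was higher (7.14%; Atad3a, an inner membrane ATPase gene, by 0.35 on the log2 scale) and 0 lower, also with DESeq2. Of 23 genes of mitochondrial transcription and transcript maturation 1 was higher (Elac2, the tRNA 3′ end processing enzyme, by 0.31) and 1 lower (Mterf2, at -0.40), 4.35% in each direction. Deoxynucleotide supply had 2 of 8 higher (25%), the pyrimidine nucleotide carriers Slc25a36 and Slc25a33 by 0.32 and 0.60, and 1 lower (12.5%), the ribonucleotide reductase subunit gene Rrm2b at -0.20. None of the 12 tested mRNAs of the mitochondrial genome was called by edgeR, 1 had an unadjusted p under 0.05, and DESeq2 called 1 lower. Summed over the 13 mRNAs, they made up 109120 ± 15158 CPM in WT against 105700 ± 16957 CPM in Taz-KD hearts (SD, n = 5, exact two-sided permutation p = 0.71), a difference smaller than the spread between libraries. The largest part of this sum was mt-Co1, which averaged 60120 CPM for WT hearts. Its mean was 49750 CPM after knock-down (log2 fold change -0.27, edgeR adjusted p = 0.097). The median log2 fold change over the 12 tested mRNAs was 0.09, so the sum does not describe each mRNA.

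In skeletal muscle 0 of the 10 regulators passed the test, 0 had an unadjusted p under 0.05, and DESeq2 called 0. Of 16145 genes tested in muscle 0.0186% passed, namely Taz, Mthfd2 and Setd5, and 14.9% had an unadjusted p under 0.05. The groups overlapped for all 10, against 2.14% of all genes with no overlap. The edgeR adjusted p-values of the 10 ran from 0.36 to 0.997. The median log2 fold change over the 10 was 0.05 against -0.02 over all genes.

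**Figure D4:**
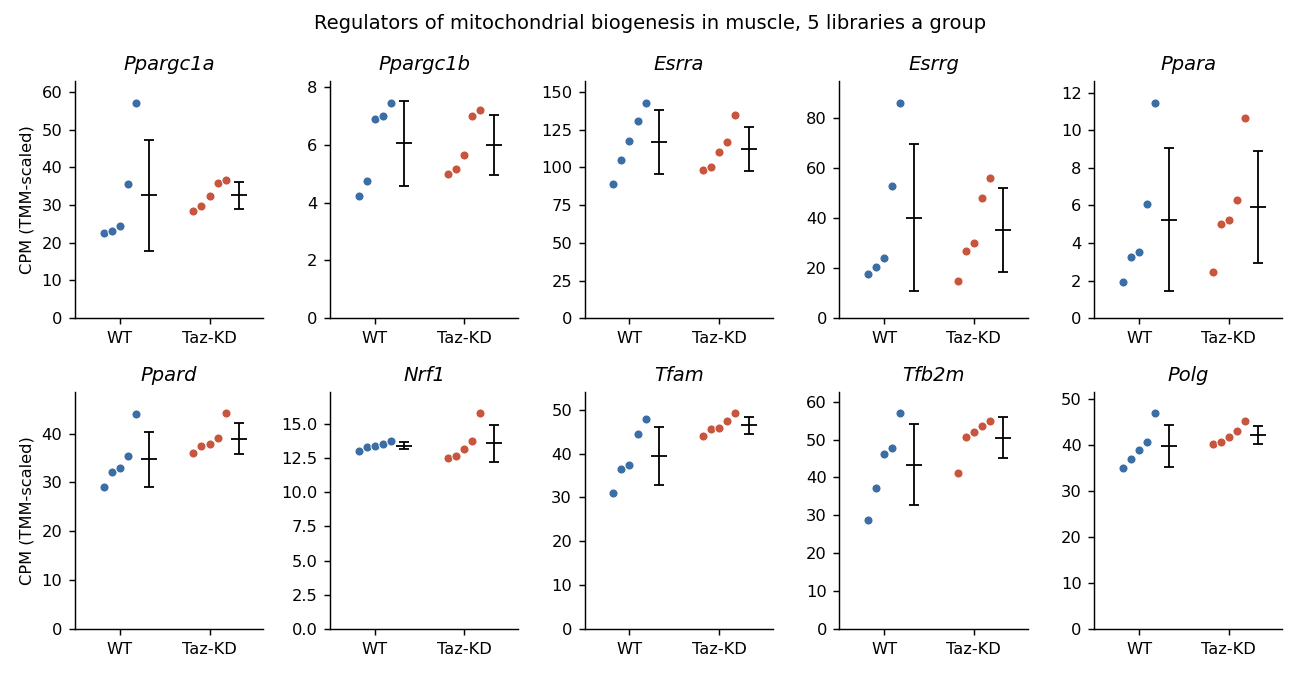
Levels of the 10 regulators in skeletal muscle, in TMM-scaled CPM on linear axes from 0, with 1 point per library (sorted within its genotype, WT blue, Taz-KD red) and the mean ± SD of 5 libraries. The genotypes overlap in every panel, and Esrrg and Ppara spread over several-fold within WT.

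Ppargc1a measured 24.5, 57.1, 23.1, 22.5 and 35.5 CPM in the WT muscles A33, A40, A51, A55 and A57, and 35.8, 36.5, 29.8, 32.4 and 28.5 CPM in the Taz-KD muscles A34, A39, A52, A56 and A58. WT A40 stood alone above all others and the Taz-KD values lay inside the WT range. The log2 fold change was 0.00 (SE 0.25) with a 95% confidence interval of -0.54 to 0.54, so that a ratio anywhere from 0.688 to 1.46 was not excluded by these libraries. Its sign turned with the libraries used, at -0.25 without A33 and A55 and 0.32 without A40. Ppargc1b was scarce at 4.21 to 7.46 CPM in WT against 4.97 to 7.21 CPM in Taz-KD (ratio 0.990, 95% confidence interval 0.741 to 1.32).

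Esrra ranged from 89.1 to 143 CPM in WT against 98.5 to 135 CPM in Taz-KD muscle (ratio 0.958, 95% confidence interval 0.771 to 1.19). Esrrg measured 17.7, 86.3, 20.7, 52.8 and 24.1 CPM in WT against 56.1, 27.0, 14.8, 30.01 and 48.2 CPM in Taz-KD muscle. The high libraries A40, A55, A34 and A58 came from both genotypes. The log2 fold change of -0.20 had a 95% confidence interval from -1.26 to 0.87, became 0.30 without A40, and 0.41 when the summed slow fibre markers were a term of the fit (adjusted p = 0.69). Ppara stood at 3.23, 11.5, 1.94, 3.53 and 6.08 CPM in WT against 10.6, 6.27, 2.46, 5.02 and 5.202 CPM in Taz-KD muscle, highest in A40 and A34. Its ratio of 1.12 had a 95% confidence interval of 0.536 to 2.35, and its log2 fold change of 0.17 became -0.15 without A33 and A55.

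For the remaining genes, Nrf1 lay between 13.01 and 13.8 CPM in WT muscle and between 12.5 and 15.8 CPM in Taz-KD muscle (ratio 1.01, 95% confidence interval 0.889 to 1.15), and Polg had a ratio of 1.06 (0.925 to 1.22). Ppard had a ratio of 1.12 (0.944 to 1.33). Tfam measured 36.5, 44.4, 37.4, 31.0 and 47.8 CPM in WT against 47.4, 44.0, 45.6, 49.2 and 45.8 CPM in Taz-KD muscle. Its Taz-KD values were tight, and A33, A51 and A55 lay below all of them. The log2 fold change was 0.24 (SE 0.11, 95% confidence interval -0.02 to 0.49, edgeR adjusted p = 0.36). Tfb2m ranged from 28.8 CPM in A55 to 56.9 CPM in A57 in WT and 41.2 to 54.9 CPM in Taz-KD (ratio 1.16, 95% confidence interval 0.90 to 1.5). Without A33 and A55, Tfam moved from 0.24 to 0.10 on the log2 scale, Tfb2m from 0.22 to 0.0017 and Ppard from 0.17 to 0.07. In the same fit Esrra moved from -0.06 to -0.12, Esrrg from -0.20 to -0.32 and Ppargc1b from -0.01 to -0.05, while Nrf1 stood at 0.02 and Polg at 0.06, all uncalled. Without A55 alone Tfb2m was at 0.10. None of the 12 lists held a called gene in muscle by edgeR or DESeq2, and at an unadjusted p under 0.05, which 14.9% of all muscle genes reached, there were 4 of 13 receptor partners, 5 of 27 PPAR targets, 3 of 26 signals and modifiers and 0 or 1 gene in each of the other 9 lists. The 13 mitochondrial mRNAs summed to 138950 ± 22654 CPM in WT against 148450 ± 36747 CPM in Taz-KD muscle (SD, n = 5; exact two-sided permutation p = 0.62).

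Because the slow fibre markers varied so widely between muscle pieces, the regulators were set against them. Over the 10 muscle libraries, log2 Esrrg correlated with the log2 sum of slow fibre markers at Pearson r = 0.737 (permutation p = 0.018, adjusted over the 10 regulators 0.088) and Spearman rho = 0.636 (permutation p = 0.055, adjusted 0.18). Esrra gave r = 0.765 (permutation p = 0.011, adjusted 0.088) and rho = 0.673 (permutation p = 0.039, adjusted 0.18). For Tfb2m the sign was opposite, at r = -0.651 (permutation p = 0.042, adjusted 0.14) and rho = -0.770 (permutation p = 0.012, adjusted 0.12). None of the 10 relations passed the correction. Without A55 and A39, the libraries farthest from the median, r was 0.847 for Esrrg, 0.762 for Esrra and -0.278 for Tfb2m. The last was thus weaker without those libraries. Within a genotype there were 5 libraries, too few for a correlation of their own.

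**Figure D5:**
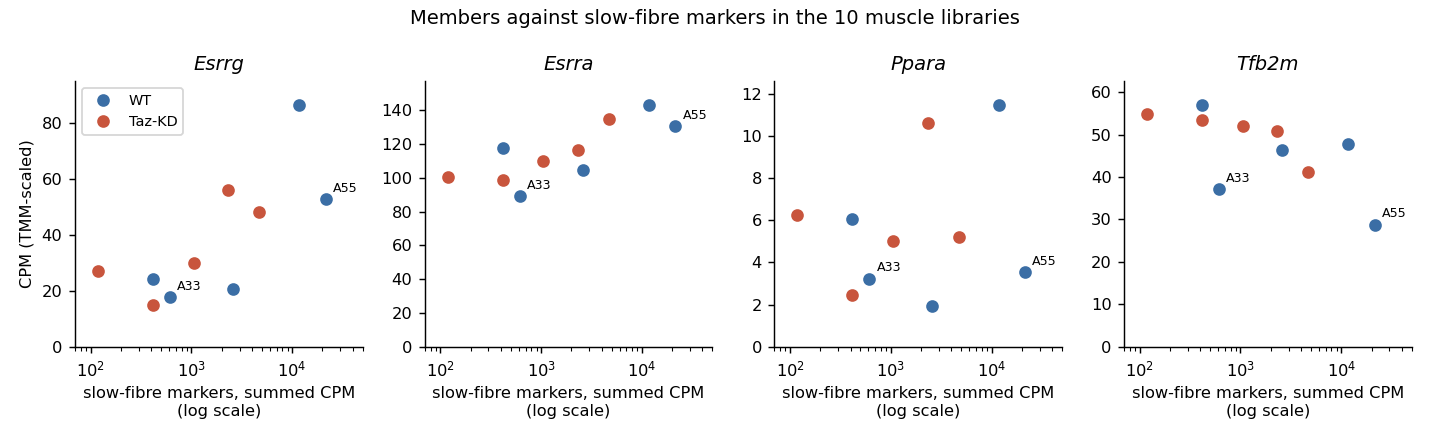
Levels of Esrrg, Esrra, Ppara and Tfb2m (TMM-scaled CPM, linear axis) against the summed CPM of slow fibre markers (log axis) in the 10 muscle libraries, WT blue and Taz-KD red, with A33 and A55 named. Esrrg ranged from 14.8 CPM (A52) to 86.3 CPM (A40), and the marker sum from 118 CPM (A39) to 21505 CPM (A55), with both genotypes along the marker axis.

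Whether the effect of Taz knock-down differed between heart and muscle was tested as an interaction over all 20 libraries. None of the 10 regulators passed, and 1 had an unadjusted p under 0.05, against 4.62% and 19.7% of the 20612 genes tested. That gene was Tfam, with a heart effect below its muscle effect by 0.47 on the log2 scale (log2 difference -0.47, SE 0.15, 95% confidence interval -0.79 to -0.15, edgeR adjusted p = 0.092). DESeq2 called it (adjusted p = 0.045), as did edgeR without WT muscle A57 (log2 difference -0.51, adjusted p = 0.012), and without A33 and A55 the difference was -0.28 (adjusted p = 0.23). For Ppara the difference was -0.73 with a 95% confidence interval of -1.84 to 0.37 (edgeR adjusted p = 0.48), so the fall called in heart was not shown to differ from the effect in muscle.

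Per kilobase of exon, the order of the regulators in WT heart was led by Ppargc1a at 26.1 ± 5.38 CPM per kb (SD, n = 5). Esrra followed at 19.6 ± 1.23, Ppargc1b at 16.7 ± 2.57, Ppara at 14.0 ± 2.66, Tfb2m at 11.7 ± 0.769 and Esrrg at 10.2 ± 1.20 CPM per kb, and the ranges of neighbours from Esrra down to Esrrg overlapped. Polg and Tfam, at 7.14 ± 0.330 and 6.61 ± 0.484 CPM per kb, overlapped each other and lay apart from Esrrg above and from Ppard below. Ppard at 3.99 ± 0.598 and Nrf1 at 1.92 ± 0.129 CPM per kb came last.

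In WT muscle the order differed. Esrra led at 26.7 ± 4.83 CPM per kb, ahead of Tfb2m at 15.5 ± 3.84, Tfam at 8.88 ± 1.51 and Esrrg at 6.49 ± 4.72 CPM per kb. Ppargc1a came after these at 4.94 ± 2.24, followed by Ppard at 4.62 ± 0.750 and Polg at 3.70 ± 0.422 CPM per kb, all overlapping their neighbours from Tfb2m downward. Ppargc1b, Ppara and Nrf1 lay lowest, at 1.52 ± 0.367, 1.37 ± 0.987 and 1.30 ± 0.0269 CPM per kb. The WT mean of Ppargc1b was 11.03 times, of Ppara 10.2 times and of Ppargc1a 5.28 times as high in heart as in muscle, each with no overlap of libraries, and Polg at 1.93 times and Nrf1 at 1.47 times were also apart, whereas Esrra, Esrrg, Ppard, Tfam and Tfb2m overlapped between the tissues. The tissues came as separate tables and no test was made between their levels. Their libraries may also differ in preparation or composition. The small nuclear RNA Rn7sk took 7989 to 11240 CPM in the hearts and 0.0196 to 0.492 CPM in the muscles. The part of such differences in these ratios was not tested.

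The genes whose levels followed Ppargc1a most closely over the 10 hearts were Cramp1l (Pearson r = 0.952), Zfp946 (0.934) and Gm19560 (0.893), among 16262 genes averaging 1 CPM or more. Over the 10 muscles they were Wbp11 (0.954), Zfp438 (0.948) and Gys1 (0.944), among 13000 genes. These are descriptions over libraries that share scaling and genotype, and the 3 names of 1 tissue did not recur in the other.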

How the data were processed

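Total RNA of frozen tissue is described as depleted of ribosomal RNA and sequenced as strand-specific libraries of 150-base reads. Given the Rn7sk levels above, heart and muscle libraries may differ in preparation, which was not tested. The deposited files hold raw counts per Ensembl gene, 1 table per tissue, made by the authors with STAR and featureCounts 1.6.4 on mm10 (GRCm38), with DESeq2 2.11.40.6 also listed in the submitters' processing notes. The strand setting of the counting is not given in the sources used here, so reads of overlapping opposite-strand genes may be mixed.

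Gene names came from GENCODE (GRCm38), which matched 46574 of 47069 heart and 53706 of 53801 muscle identifiers. Each tissue was fitted alone with edgeR 4.0.16 (R 4.3.3) by the quasi-likelihood test, with TMM factors, filterByExpr and robust dispersion, adjusted by Benjamini-Hochberg over all genes tested and called at 0.05. The interaction used all 20 libraries. CPM were counts over TMM-scaled totals. Confidence intervals (95%) came from the fitted coefficient and its standard error. Correlations used log2(CPM + 0.5) for the genes and log2 of the marker sum, with 100000 resamples. DESeq2 1.42.0, limma-voom (limma 3.58.1), other scalings and filters, and leaving out each library were alternatives. A slow fibre term and leaving out A33 and A55 were added after seeing the data. The fits were tested on simulated data.

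The members and gene lists were chosen with earlier results of these data known. Named were all 10 genes and Taz; of each list, up to 4 called genes with the smallest adjusted p, called genes against the direction of most called genes of their list, and genes whose effect differed between tissues; and the 3 genes most like Ppargc1a. Replicates are separate animals by their numbers. Of the listed genes, 1 is not reported here and was left out of its list.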

Additional observations from a re-analysis of the deposited data

Results flagged for a closer look

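Among 44 sets of 5 libraries checked for a value far from the rest (10 regulators and Taz, in 4 groups), 1 was marked, where chance alone marks about 1 in 20. Taz in Taz-KD muscle A58 stood at 15.2 CPM, above the next value of 13.4 CPM and the lowest of 12.7 CPM, and still below every WT muscle, the lowest of which held 45.9 CPM.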

How the results depend on the processing

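Taz kept its direction and call in both tissues under all alternatives. Ppara in heart stayed called under 21 of 22, all but the fit of all 20 libraries. The number of regulators called in heart was 2 with upper-quartile factors, 3 with library totals and 0 in the fit of all 20 libraries, and 1 to 2 when a heart was left out. In that joint fit 2087 genes were called in heart and 167 in muscle. DESeq2 called 145 genes in muscle and 1589 in the interaction, including 1 regulator. When 1 library was left out, 3 to 5 genes were called in muscle (5 without A52), and in the interaction 607 (without R1796) to 2042 (without A57) genes and 0 to 1 regulators. The causes were not tested.

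No regulator was called where its sign turned. In muscle, the log2 fold change of Ppargc1a was -0.0098 with upper-quartile factors, -0.11 with library totals, -0.0044 with at least 10 counts in every library and -0.25 without A33 and A55, and -0.11 to 0.32 with 1 muscle left out. Ppargc1b was 0.0083 with no filter, 0.027 in the joint fit and -0.12 to 0.068 with 1 left out. With slow fibre markers as a term Esrra was 0.065 and Esrrg 0.41. With 1 left out Esrra was -0.15 to 0.032, Esrrg -0.42 to 0.30, Ppara -0.15 to 0.69 and Nrf1 -0.040 to 0.047. Ppara was -0.15 without A33 and A55. With library totals Nrf1 was -0.11 and Polg -0.041, a scaling under which the median of all muscle genes was -0.16. In heart, Ppard was -0.0075 to 0.14 and Tfb2m -0.064 to 0.0066 with 1 left out. The interaction of Ppargc1a was 0.073 without A33 and A55, that of Ppard 0.00090 with library totals, and that of Polg 0.13 with library totals, 0.019 without A33 and A55 and -0.085 to 0.015 with 1 library left out. The summed mitochondrial mRNAs, Taz-KD over WT, were 0.969 in muscle with library totals and 0.927 to 1.01 in heart with 1 heart left out, with no call. List counts of 0 to 2 in heart often moved by 1 or 2 when a heart was left out. No paired analysis was possible because the groups share no animal numbers.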
